A study of Homo sapiens with 6 samples.

Results

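S100 proteins and annexins are calcium-binding protein families, and their mRNA levels were followed in breast cell lines treated with decitabine. Members were every gene whose symbol in the deposited tables was S100A with a number, S100B, S100G, S100P, S100Z or ANXA with a number. This gave 32 genes, of which 20 were S100 genes and 12 annexins, with 50 RefSeq transcripts, among the 23617 gene symbols and 43497 transcripts measured in MDA-MB-231. MDA-MB-231 is a line of human breast cancer with a basal, mesenchymal-like profile. HMLER is made of human mammary epithelial cells transformed in culture. The DAC groups received 10 µM decitabine (5-aza-2'-deoxycytidine, DAC), a cytidine analog that traps DNA methyltransferases, added anew each day, and were collected at 72 h, and the untreated groups received none. MDA-MB-231 had 1 library per condition and HMLER 2, each from a pool of extractions, and the HMLER libraries of a condition were merged into 1 value by the authors. The untreated MDA-MB-231 library carries another cell line number in a label, and its title was followed. Values are FPKM, fragments scaled to transcript length and to library size, summed here over the transcripts of a gene. How library size was set is not given in the sources used here. Each line thus gives 1 value per condition, so no difference below has a replicate check and no p-value is given. In such bulk RNA, fewer expressing cells and less RNA per cell cannot be told apart.

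S100 proteins are small EF-hand proteins that change shape on binding calcium and then dock onto target proteins. Most are encoded side by side in the epidermal differentiation complex of chromosome 1, and some are secreted and signal through AGER (RAGE) or TLR4. Annexins bind acidic membrane phospholipids when calcium rises and take part in membrane repair, vesicle traffic and inflammation. The families meet in complexes such as S100A10 with ANXA2, which binds plasminogen at the cell surface, and S100A11 with ANXA1. Several members are transcribed only in certain epithelia or in myeloid cells.

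The families held very unequal members in untreated MDA-MB-231 cells, and the members over 2-fold higher after DAC were all among the low ones. S100A4 was 9.06 times and S100A3 9.41 times as high after DAC, and S100A2 2.90 times. The abundant members S100A6, S100A10, S100A11, S100A16, ANXA1, ANXA2, ANXA5 and ANXA6 were each lower after DAC, at 0.451 to 0.828 times the untreated FPKM. S100A13 was at 1.41 times. Of all 998 genes with a mean of 100 FPKM or more, 78.6% were lower as well. Over 2-fold higher were 69.1% of all genes below a mean of 1 FPKM, 16.3% at 1 to 10 and 3.02% at 10 to 100. In HMLER, 4 members were listed as higher, S100P, ANXA3, S100A14 and S100A8. S100P was past 2-fold in both cell lines with 1 FPKM reached in each, and S100A14 was past 2-fold in both but under 1 FPKM in MDA-MB-231, where both genes rested on few reads.

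DNA methyltransferases, which DAC traps, modify the C of CpG, so the promoters of the 6 members on which these comparisons turn are printed here, from the abundant S100A6 to S100P. They are the 200 bases just before the annotated start from RefSeq, build GRCh38.p14, written 5′ to 3′ on the strand of the gene, with each CpG in capitals. The stretches are chr1:153535992-153536191 on the minus strand for S100A6, chr1:153545807-153546006 on the minus strand for S100A4, chr1:153549259-153549458 on the minus strand for S100A3, chr4:6693678-6693877 on the plus strand for S100P, chr9:73151665-73151864 on the plus strand for ANXA1 and chr4:78551570-78551769 on the plus strand for ANXA3.
S100A6: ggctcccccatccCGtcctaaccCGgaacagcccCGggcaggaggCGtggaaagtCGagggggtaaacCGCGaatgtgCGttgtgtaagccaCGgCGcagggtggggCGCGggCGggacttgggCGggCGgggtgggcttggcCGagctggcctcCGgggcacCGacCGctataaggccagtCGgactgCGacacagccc
S100A4: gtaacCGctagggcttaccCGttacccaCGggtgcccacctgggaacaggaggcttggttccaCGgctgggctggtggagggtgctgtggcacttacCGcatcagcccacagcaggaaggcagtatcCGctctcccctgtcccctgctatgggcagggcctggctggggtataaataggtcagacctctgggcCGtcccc
S100A3: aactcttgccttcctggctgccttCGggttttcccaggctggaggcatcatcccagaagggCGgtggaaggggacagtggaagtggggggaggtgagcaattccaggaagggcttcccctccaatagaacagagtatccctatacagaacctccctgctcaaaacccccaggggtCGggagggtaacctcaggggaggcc
S100P: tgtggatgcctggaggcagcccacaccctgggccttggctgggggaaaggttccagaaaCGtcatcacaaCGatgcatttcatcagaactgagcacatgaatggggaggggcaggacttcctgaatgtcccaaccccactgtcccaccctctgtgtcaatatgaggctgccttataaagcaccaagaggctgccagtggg
ANXA1: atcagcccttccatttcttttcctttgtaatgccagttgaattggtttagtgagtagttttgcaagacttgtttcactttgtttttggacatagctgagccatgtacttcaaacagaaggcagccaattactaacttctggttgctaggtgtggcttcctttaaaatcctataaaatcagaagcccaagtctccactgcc
ANXA3: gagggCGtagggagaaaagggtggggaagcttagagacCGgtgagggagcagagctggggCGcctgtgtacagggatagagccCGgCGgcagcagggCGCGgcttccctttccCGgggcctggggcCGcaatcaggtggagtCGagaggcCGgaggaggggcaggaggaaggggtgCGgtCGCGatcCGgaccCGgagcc
The stretch of S100A6 held 21 CpG and that of ANXA3 16, whereas S100A4 had 7, S100A3 had 3, S100P had 2 and ANXA1 had 0.

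The label of the treated line was checked on marker genes. All 4 mesenchymal markers were detected, with 3066 FPKM untreated and 1134 after DAC for VIM, 212 and 139 for CD44, 39.8 and 111 for FN1 and 2.09 and 11.3 for SPARC, so they did not move together. The 7 luminal or epithelial markers were split. CDH1, ESR1 and PGR did not exceed 0.179 FPKM in either library, whereas KRT18 (174 and 164 FPKM), KRT8 (154 and 141) and EPCAM (7.90 and 9.78) were present and KRT19 went from 0.518 to 13.5 FPKM. The 5 myeloid markers summed to 0.212 FPKM untreated and 1.17 after DAC, of which CD14 gave 0.732. Of the keratinocyte differentiation markers, KRT1, IVL and LOR were listed at 0 in both libraries and KRT10 was at 16.8 and 17.1 FPKM. The part of these markers in the results below was not tested. The FPKM that a single read contributes differed between the 2 MDA-MB-231 libraries by a factor of 1.01, while FPKM summed over all genes was 589238 untreated and 480455 after DAC, and read totals are not in the tables used here. The typical gene was slightly lower after DAC, with a median ratio of 0.912 (log2 of -0.13) among the 11292 genes at 1 FPKM or more in both libraries, and the ratios below are not divided by it.

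**Figure D1:**
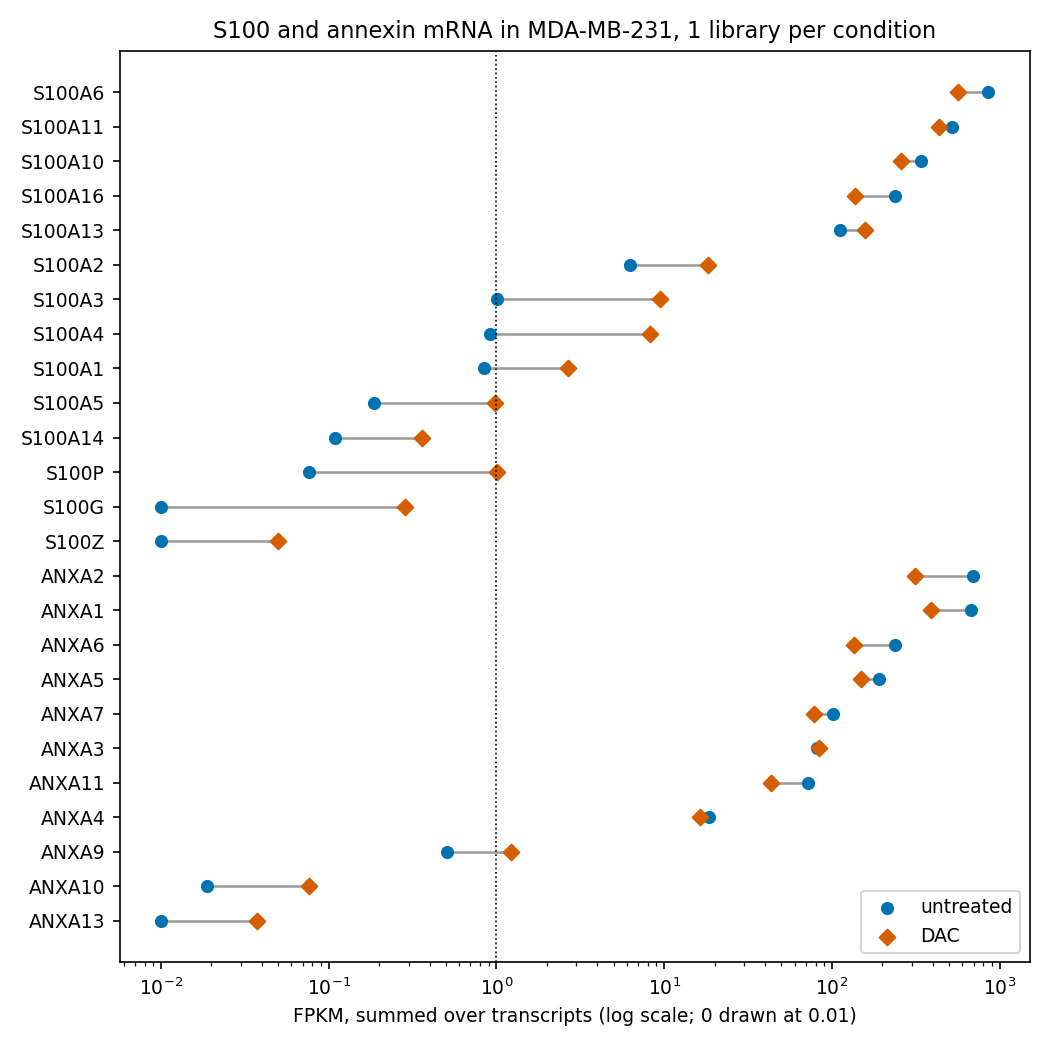
FPKM of each S100 gene and annexin in MDA-MB-231 (log axis, 0 drawn at 0.01), 1 circle for the untreated and 1 diamond for the DAC library, with a dotted line at 1 FPKM; the 7 members at 0 in both are left out. Members under 10 FPKM untreated lie further right after DAC, and most of those above it further left.

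In MDA-MB-231, 10 of the 20 S100 genes had 1 FPKM or more with or without DAC and 7 in both libraries. A gene was counted as higher or lower where its ratio passed 2-fold. By this rule 5 of the 10 were higher and 0 lower, beside 10.8% higher and 4.82% lower of all 12525 genes at this level. Because S100A1, S100A4 and S100P reached 1 FPKM only after DAC, they could be counted only as higher. Of the 7 present in both libraries, S100A2 and S100A3 were higher, where 4.37% of all such genes were higher and 4.13% lower. Without a minimum level 9 of the 20 S100 genes and 3 of the 12 annexins were higher, 7 members being at 0 in both libraries, where of the 18596 genes above 0 in at least 1 library 27.9% were higher and 5.81% lower. Of the 12 annexins, 9 reached 1 FPKM in at least 1 library, of which ANXA9 was higher and ANXA2 lower. ANXA9 also reached 1 FPKM only after DAC. For the largest transcript of all 19 members at this level, the ranges between the bounds attached to each FPKM by Cuffdiff overlapped between the libraries. The DAC/untreated ratios of the S100 genes and annexins below are therefore values of these libraries, and none of them stands clear of the bounds.

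S100A6, calcyclin, was the most abundant member. It measured 857 FPKM (bounds 424 to 1290) untreated and 566 (bounds 297.1 to 835) after DAC, a ratio of 0.661. S100A11, calgizzarin, which pairs with ANXA1, was at 523 (bounds 285 to 761) and 433 FPKM (bounds 238 to 628), a ratio of 0.828. Both were lower after DAC, by less than the width of their bounds, and so were S100A10 and S100A16. S100A10, also called p11 and the partner of ANXA2, was at 342 and 259 FPKM, a ratio of 0.757. S100A16 had the lowest ratio of the abundant S100 genes, 0.579, with 237 (bounds 129 to 346) and 138 FPKM (bounds 75.4 to 199.7). S100A13, which takes part in the release of FGF1, went the other way, from 112 to 159 FPKM, a ratio of 1.41. It is split over 5 transcripts that share a locus with S100A1, and its largest transcript had bounds of 0 to 129 untreated and 4.78 to 176 after DAC. Together these 5 genes made up 99.5% of the summed S100 FPKM untreated and 97.4% after DAC. The sum over all S100 genes was 2081 FPKM untreated and 1595 after DAC, 0.353% and 0.332% of all FPKM in the library.

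The S100 genes with low values moved upward. S100A2, an S100 of basal epithelial cells that binds p53, was at 6.28 FPKM (bounds 0 to 13.4) untreated and 18.2 (bounds 5.62 to 30.8) after DAC. S100A3, known from the hair cuticle, was at 1.01 FPKM (bounds 0 to 2.87) and 9.51 (bounds 0 to 20.5). Low FPKM values of genes with a single transcript came in even steps, each step being a read, so the reads behind them could be inferred. For S100A3 these were 23 reads untreated and 215 after DAC. The 95% interval of its ratio from counting error alone was 6.11 to 15.2. S100A4, metastasin, which binds non-muscle myosin and is linked to cell motility, was at 0.914 FPKM (bounds 0 to 2.64) and 8.28 (bounds 0 to 19.2). Its 12 and 108 reads gave an interval of 4.98 to 18.1 around the ratio of 9.06, and all of them lay on 1 of its 2 transcripts. S100A5, otherwise known from the olfactory epithelium, was below 1 FPKM in both libraries, at 0.185 FPKM or 4 reads and 0.980 FPKM or 21 reads. Its ratio was 5.28, with a counting interval of 1.78 to 21.2. Counting error covers neither the culture nor the library, so these intervals describe the libraries only.

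S100A1, the calcium sensor of heart muscle, was at 0.842 and 2.66 FPKM, a ratio of 3.16. Its locus overlaps that of S100A13, which was far more abundant, and its bounds reached 8.63 untreated and 17.2 after DAC, so its value depends on how reads were divided between them. S100P, first known from placenta and a ligand of AGER and ezrin, was at 0.0767 FPKM untreated, which is 1 read, and 1.003 FPKM after DAC, which is 13 reads. The ratio of 13.1 had a counting interval of 1.97 to 556. S100A14, an S100 of epithelia, had 4 and 13 reads, 0.110 and 0.359 FPKM, a ratio of 3.27 with an interval of 1.01 to 13.8. S100G and S100Z were listed at 0 untreated and at 0.284 and 0.0501 FPKM after DAC. For S100Z this was 2 reads, and the bounds of S100G after DAC ran from 0 to 3.10 FPKM.

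A further set of S100 genes gave no reads in either MDA-MB-231 library. It held S100A7 (psoriasin), S100A7A, S100A8 and S100A9 (the subunits of calprotectin), S100A12 and S100B, the astrocyte and melanocyte S100. A count of 0 allows up to 3 reads per library, which is 0.221 FPKM for S100A8, 0.189 for S100A9 and 0.269 for S100A12 in the untreated library. The S100A7 and S100A7A genes are near copies, and reads that fit both may have been divided or lost in the authors' counting.

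On chromosome 1, 4 neighbouring S100 genes were above their untreated level after DAC, 3 of them past 2-fold at 1 FPKM and S100A5 under 1 FPKM in both libraries. Over 2-fold higher were 10.8% of all genes at 1 FPKM in at least 1 library, and 16.3% of those at a mean of 1 to 10 FPKM. S100A4 reached 1 FPKM only after DAC and could be counted only as higher. In the files' build, hg19, S100A5 (153509623 to 153514241), S100A4 (153516095 to 153518282), S100A3 (153519809 to 153521734) and S100A2 (153533585 to 153538306) follow one another, with DAC/untreated ratios of 5.28, 9.06, 9.41 and 2.90. On either side stand S100A6 (153507076 to 153508717), at a ratio of 0.661, and S100A16 (153579367 to 153585514), at 0.579. Beyond S100A16 the ratios were above 1 again, at 3.27 for S100A14, 3.16 for S100A1 and 1.41 for S100A13, so the higher genes did not form a single run. S100A9, S100A12, S100A8, S100A7A and S100A7, further toward lower coordinates, were at 0. The untreated level changed as sharply between neighbours, from 857 FPKM for S100A6 to 0.185 for S100A5. The order of genes was looked at after their values were seen, and no test of position was made.

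**Figure D2:**
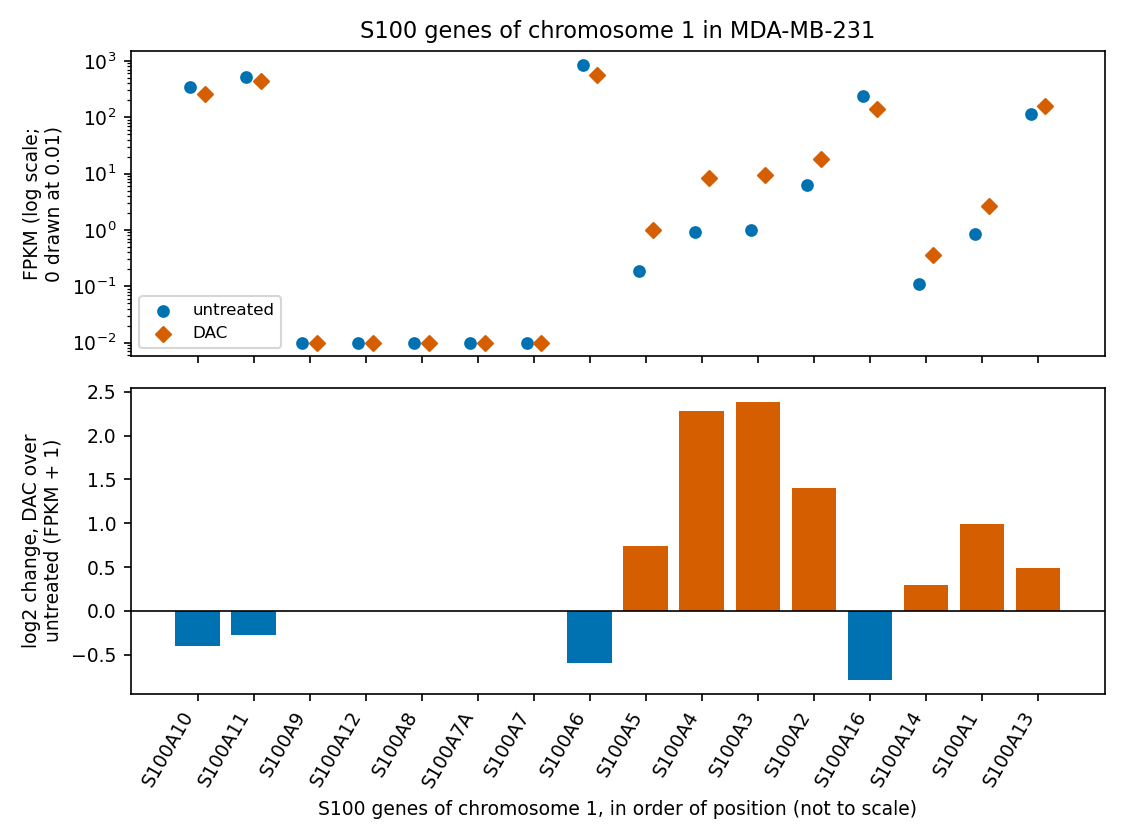
The 16 S100 genes of chromosome 1 in order of position, with FPKM of the untreated and DAC libraries of MDA-MB-231 above (log axis, 0 drawn at 0.01) and the log2 change after adding 1 FPKM below. S100A5, S100A4, S100A3 and S100A2 show bars above 0 between S100A6 and S100A16, whose bars are below 0, and beyond S100A16 the bars of S100A14, S100A1 and S100A13 are above 0 as well.

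The annexins were mostly abundant and mostly below their untreated value after DAC. Of the 8 annexins at 1 FPKM or more in both libraries, 7 were below their untreated value, ANXA2 past 2-fold, and ANXA3 was not, where 61.1% of all genes at that level were below. Their median log2 change was -0.54, and it was -0.12 over all 11292 genes at that level. ANXA2, the membrane annexin that binds plasminogen with S100A10, was at 693 FPKM untreated and 312 after DAC. Its ratio of 0.451 was the lowest of all members at 1 FPKM or more in both libraries. Its largest transcript had bounds of 220.3 to 1123 untreated and 148 to 466 after DAC. The processed pseudogene ANXA2P2, a near copy, was itself given 725 and 324 FPKM. Reads from ANXA2 and its copies cannot be told apart in these tables, and the sum of ANXA2 with the 3 pseudogenes had a ratio of 0.447. ANXA1, the glucocorticoid-regulated annexin that acts on formyl peptide receptors, was at 677 FPKM (bounds 274 to 1079) and 389 (bounds 185 to 592), a ratio of 0.574.

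ANXA6, which carries a duplicated annexin core, was at 238 and 136 FPKM, a ratio of 0.572. ANXA11, a long-tailed annexin of RNA granule transport, was at 71.8 and 43.1 FPKM, and its main 2 transcripts both fell, from 54.0 to 34.3 and from 17.8 to 8.75 FPKM. ANXA5, the phosphatidylserine binder used to stain apoptotic cells, was at 190.9 and 149 FPKM, a ratio of 0.780. ANXA7 (101 and 78.3 FPKM) and ANXA4 (18.4 and 16.4 FPKM) had ratios of 0.775 and 0.890. ANXA3 was at 81.4 FPKM (bounds 44.6 to 118) and 83.6 (bounds 45.8 to 121), a ratio of 1.03. The low annexins were on the other side. ANXA9, an annexin whose calcium sites are degenerate, had 35 and 84 reads, 0.507 and 1.22 FPKM, and a ratio of 2.42 with a counting interval of 1.61 to 3.69. The gastric annexin ANXA10 had 1 and 4 reads, ANXA13 was at 0 and 0.0373 FPKM, and ANXA8 was listed at 0 in both libraries for all of its transcripts, as was its near copy ANXA8L1. Summed over all annexins, FPKM was 2071 untreated and 1209 after DAC, a ratio of 0.584, against 0.767 for the summed S100 genes. FPKM summed over all genes was also lower after DAC, at 589238 untreated and 480455 after DAC. As a share of all FPKM, the annexins went from 0.352% to 0.252% and the S100 genes from 0.353% to 0.332%.

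The dependence on level was shared by all genes. Of all genes with a mean of 100 FPKM or more over the 2 libraries, 78.6% of 998 were lower after DAC and their median log2 change was -0.31. Of the members in that range, 4 of 5 S100 genes and 4 of 4 annexins were lower, with medians of -0.40 and -0.80, and past 2-fold stood 1.9% of all genes above and 6.91% below, among the latter ANXA2. At a mean of 1 to 10 FPKM, 16.3% of all 5100 genes were over 2-fold higher and 5.14% lower. The 3 members there, S100A1, S100A3 and S100A4, were all higher. Of these, S100A1 and S100A4 reached 1 FPKM only after DAC and could be counted only as higher. At 10 to 100 FPKM, where 3.02% of 5967 genes were over 2-fold higher and 4.02% lower, S100A2 was higher and the 4 annexins were neither. Below a mean of 1 FPKM lay S100P and ANXA9, in a range where 69.1% of genes were higher and 7.17% lower. Genes in this range reached 1 FPKM in 1 library and were below it in the other. The filter itself thus sets part of these shares. S100P and ANXA9 reached 1 FPKM only after DAC and could be counted only as higher.

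**Figure D3:**
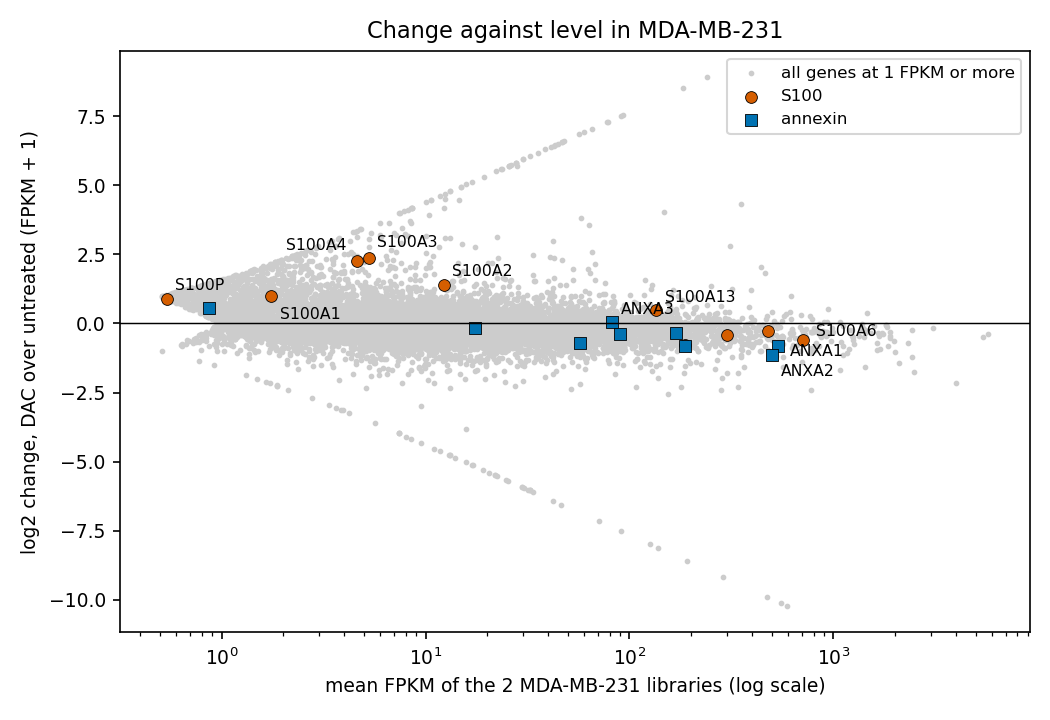
Log2 change after adding 1 FPKM against the mean FPKM of both MDA-MB-231 libraries (log axis), with all genes at 1 FPKM or more in at least 1 library in grey, S100 genes as circles and annexins as squares. S100A3, S100A4 and S100A2 lie above most genes of their level, and ANXA2 lies at -1.15.

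Promoter windows of 300 bases, from 250 before to 50 after the start, were found in the RefSeq table for 29 of the 32 members. For a gene with several windows the one richest in CpG was used. All 10 members with 20 or more CpG had 18.4 FPKM or more untreated, with a median of 214 FPKM. Of the 18 members with 9 or fewer CpG, 2 were that abundant, S100A16 with 8 CpG and ANXA1 with 0, and 10 were below 1 FPKM in both libraries. S100A13 stood between, with 19 CpG. The 6 members over 2-fold higher at 1 FPKM, S100A1, S100A2, S100A3, S100A4, S100P and ANXA9, had 5 to 8 CpG, and ANXA2, the member over 2-fold lower, had 32. All 35116 windows of the table had a median of 14 CpG, and 43.6% of them had 9 or fewer.

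Coding genes as a whole were sorted by the same windows, but only those at 1 FPKM or more in at least 1 library. The member counts above include the 10 members below 1 FPKM in both libraries, so the sets are not alike. Whether the members differ from coding genes was not tested. A window was found for 82.5% of the 11519 coding genes that had 1 FPKM or more with or without DAC. Among them 27.7% of the 476 genes with 9 or fewer CpG were over 2-fold higher after DAC, against 11.7% of the 1330 with 10 to 19 and 7.5% of the 7695 with 20 or more. The shares over 2-fold lower were 7.56%, 4.66% and 3.63%, and those listed as higher in HMLER were 21.0%, 11.4% and 9.68%. The untreated median was 3.66 FPKM with 9 or fewer CpG and 15.2 FPKM with 20 or more, and 33.2% and 61.7% of these genes had 10 FPKM or more untreated, so the level moved with the CpG count, and its part in the difference was not tested. DNA methylation of these promoters was not analysed here.

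**Figure D4:**
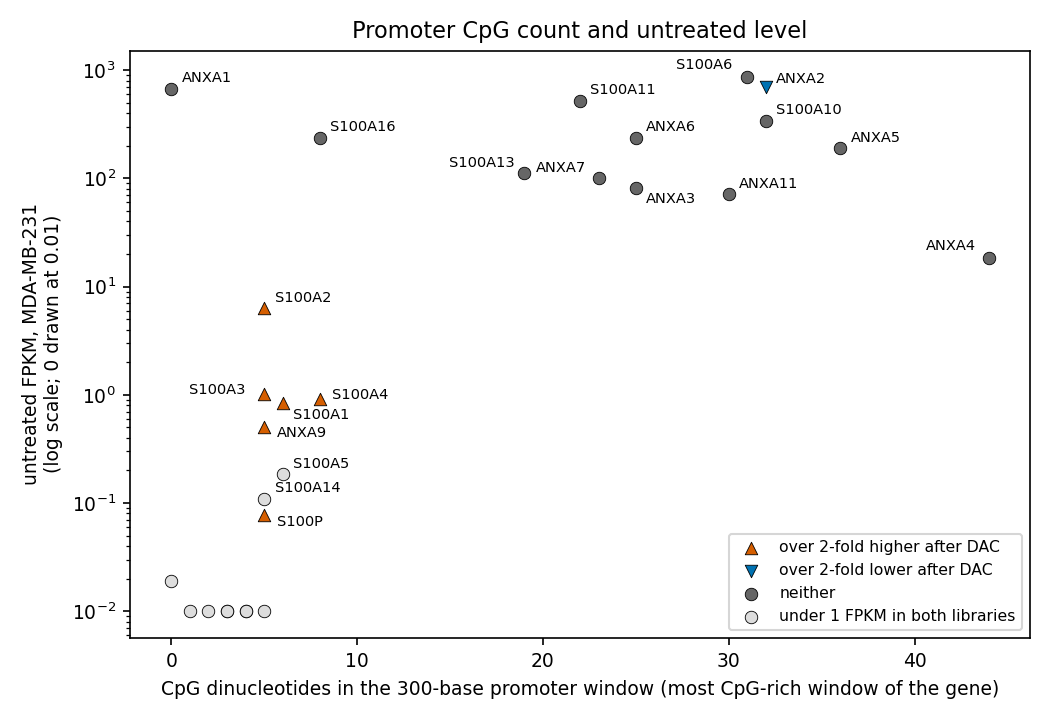
Untreated FPKM in MDA-MB-231 (log axis, 0 drawn at 0.01) against the CpG count of the promoter window for the 29 members with a window, marked by whether they were over 2-fold higher or lower after DAC. Members with 20 or more CpG lie at 18.4 FPKM or above, and the 6 higher members lie at 5 to 8 CpG.

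In HMLER, the table used here held only transcripts that rose more than 2-fold and passed the authors' own q-value, so a member that is absent from it may have fallen, stayed or been too low to test. Of the 32 members 4 were listed, beside 7.85% of all 23617 symbols. Of the 10 S100 genes and 9 annexins at 1 FPKM in an MDA-MB-231 library, only S100P and ANXA3 were listed, beside 10.9% of all genes at that level. S100P went from 1.51 to 20.6 FPKM, a ratio of 13.6. ANXA3, an annexin otherwise abundant in neutrophils, went from 3.51 to 29.6 FPKM, a ratio of 8.44. S100A14 went from 1.26 to 5.47 FPKM, a ratio of 4.35, and S100A8 from 1.36 to 2.89 FPKM, a ratio of 2.13, while S100A9, with which S100A8 forms calprotectin, was not listed.

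The lines differed in where these genes started, although the tables were normalized separately. ANXA3 was at 81.4 FPKM in untreated MDA-MB-231 and at a ratio of 1.03 there, and in HMLER it started at 3.51. S100P and S100A14 were higher after DAC in both lines, but from 1 and 4 reads in MDA-MB-231, and S100A14 stayed below 1 FPKM there. S100P was thus the 1 member past 2-fold at 1 FPKM in both, as were 3.66% of all genes. S100A8 gave no reads in MDA-MB-231. S100A2, S100A3 and S100A4, over 2-fold higher in MDA-MB-231, were not listed in HMLER. The difference between the lines was not tested, for want of replicate values. Of the 4 listed members, S100P, S100A14 and S100A8 had 5, 5 and 2 CpG in the promoter window, and ANXA3 had 25.

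**Figure D5:**
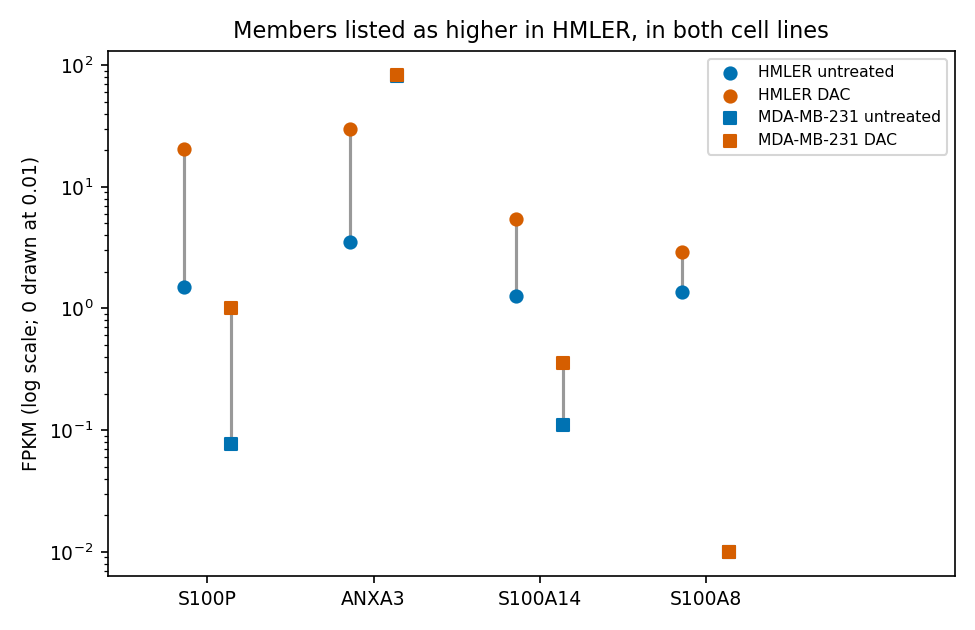
FPKM (log axis, 0 drawn at 0.01) of the 4 members listed as higher in HMLER, as circles for HMLER and squares for MDA-MB-231, untreated and after DAC, joined by a line. All 4 are higher after DAC in HMLER, and in MDA-MB-231 the points of ANXA3 (81.4 and 83.6 FPKM) and of S100A8 (0 in both) overlap.

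The receptors of these proteins were a short list of 8 genes, of which 3 reached 1 FPKM in MDA-MB-231. TLR4, a receptor of S100A8 and S100A9, was at 2.74 FPKM untreated and 9.66 after DAC in MDA-MB-231, summed over 3 transcripts. Its 1 transcript listed in HMLER was at 3.26 and 8.54 FPKM there and at 2.49 and 8.17 FPKM in MDA-MB-231. ANXA2R, a receptor of ANXA2, was at 0.398 and 1.11 FPKM in MDA-MB-231 and 0.318 and 1.27 FPKM in HMLER. These were the 2 receptors past 2-fold, in both lines, beside 10.8% of all genes higher in MDA-MB-231 and 3.66% in both. ANXA2R reached 1 FPKM in MDA-MB-231 only after DAC and could be counted only as higher. For the largest transcript of TLR4 and of ANXA2R, the bounds overlapped between the MDA-MB-231 libraries. AGER, FPR1 and FPR2, receptors of S100 proteins and of ANXA1, were listed at 0 in MDA-MB-231, and BSG was at 535 and 436 FPKM. AGER was listed under 70 transcript entries, and whether reads that fit several of them were lost was not tested.

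All 13 intracellular partners were at 1 FPKM or more in MDA-MB-231, where 0 were over 2-fold higher and 3 lower, beside 10.8% and 4.82% of all genes. These were AHNAK, the giant scaffold bound by S100A10 and ANXA2, at 94.4 and 45.1 FPKM, its relative AHNAK2, at 7.05 and 3.002, and DYSF, dysferlin of membrane repair, at 28.6 and 11.4. DYSF was summed over 14 transcripts. For the largest transcript of each of the 3, the bounds overlapped between the libraries. AHNAK had a ratio of 0.477, beside 0.451 for ANXA2 and 0.757 for S100A10, and was no longer past 2-fold once divided by the median ratio, which left 2 partners lower. MYH9, the myosin heavy chain that S100A4 binds, was at 308 and 171 FPKM, a ratio of 0.555.

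Plasminogen activation, to which the ANXA2 and S100A10 complex contributes, was followed in 8 genes, of which 7 reached 1 FPKM in MDA-MB-231. They did not move together, and 1 of them is not reported here. PLAU, urokinase, was lower in MDA-MB-231, at 83.6 and 51.2 FPKM summed over 2 transcripts. Its 1 transcript listed in HMLER was at 41.1 and 97.4 FPKM there. PLAT and SERPINB2 were over 2-fold higher in both lines, beside 10.8% of all genes higher in MDA-MB-231 and 3.66% in both. PLAT, tissue plasminogen activator, was at 4.61 and 13.03 FPKM in MDA-MB-231 and 21.8 and 129 FPKM in HMLER. SERPINB2, an inhibitor of plasminogen activators, was at 0.606 and 9.94 FPKM in MDA-MB-231, summed over 2 transcripts. Its 1 transcript listed in HMLER was at 0.154 and 7.70 FPKM there. SERPINB2 reached 1 FPKM in MDA-MB-231 only after DAC and could be counted only as higher. PLAUR, the urokinase receptor, was at 98.8 and 107.5 FPKM in MDA-MB-231, summed over 3 transcripts. Its 1 transcript listed in HMLER was at 26.2 and 52.5 FPKM there and at 78.9 and 93.7 FPKM in MDA-MB-231, a ratio of 1.19.

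Other genes of the epidermal differentiation complex, in which most S100 genes lie, were nearly silent in MDA-MB-231, where none of the 36 exceeded 0.0608 FPKM. In HMLER 6 of them were listed, beside 7.85% of all symbols, and 5 of the 6 were late cornified envelope genes. LCE1C went from 0.934 to 29.7 FPKM, LCE1F from 0.871 to 25.7, LCE1B from 0.146 to 11.1, and LCE1E from 0.140 to 8.07. LCE1D was listed at 0 untreated and at 2.96 FPKM after DAC. The LCE1 genes are near copies of each other, so the division of reads among them is uncertain. Of the 7 S100 fused-type genes of the same region, only FLG (filaggrin) reached 1 FPKM in MDA-MB-231, at 2.23 and 1.80 FPKM. FLG was not past 2-fold, beside 10.8% higher and 4.82% lower of all genes at that level. The others were too low to be counted. None of the 7 was listed in HMLER, beside 7.85% of all symbols.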

How the data were processed

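RNA-seq was analysed from 6 libraries of 2 cell lines. The authors aligned reads to hg19 with TopHat2 and deposited FPKM values per RefSeq transcript from Cuffdiff; versions and library scaling are not given in the sources used here. For MDA-MB-231 they deposited 1 FPKM with lower and upper bounds per library. For HMLER they deposited 1 FPKM per condition, merged over 2 libraries, only for transcripts that rose and passed their q-value threshold, with their own fold changes, p-values and q-values, which were not used.

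Members and lists were chosen with earlier results of these data known. FPKM was summed over the transcripts of a symbol. A gene was called at 1 FPKM in at least 1 library and a ratio over 2-fold, without a pseudocount, and log2 changes used 1 FPKM added to each value, which understates low genes. Every member at 1 FPKM or listed in HMLER is named, and of other lists at most 5 genes by log2 change, plus genes named after their values were seen (MYH9, BSG, FLG, AGER, FPR1 and FPR2). A gene of the plasminogen list that this rule would name is not reported here. Reads were inferred from lone transcripts of 500 to 1200 bases: 265 and 394 low values of the libraries were all within 0.1 of a whole read. This step was added after the data were seen. Intervals (95%, Clopper-Pearson on the share of reads) and the floor of 3 reads cover counting error only. The calling code was tested on simulated data with little noise (11292 genes, of which the 200 changed 4-fold were called and 0 others), which says nothing of how reliable calls from single libraries are. Promoters came from RefSeq (GRCh38.p14), matched by symbol or accession. Protein sequences were not used here. Figures were drawn with matplotlib 3.10.9, and values computed with scipy 1.17.1, pandas 2.3.3 and numpy 2.4.6 under Python 3.11.15.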

Additional observations from a re-analysis of the deposited data

Results flagged for a closer look

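Genes of the fixed lists that were listed as higher in HMLER and were below the untreated value in MDA-MB-231 were looked at more closely. The difference between the lines was not tested. CD44, a mesenchymal marker and hyaluronan receptor, had a DAC/untreated ratio of 6.71 in HMLER (1.23 to 8.26 FPKM) and 0.653 in MDA-MB-231 (212 to 139 FPKM summed over 8 transcripts). The CD44 transcript listed in HMLER was at 15.02 FPKM (bounds 0 to 47.5) untreated and 12.7 (bounds 0 to 34.9) after DAC in MDA-MB-231. Its ratio was 0.848, with overlapping bounds, beside the median ratio of 0.912 of all genes at 1 FPKM in both libraries. EZR, ezrin, a membrane linker to actin that S100P binds, had a DAC/untreated ratio of 8.46 in HMLER (5.003 to 42.3 FPKM) and 0.695 in MDA-MB-231. The transcript listed in HMLER was not the main one in MDA-MB-231, where it was at 18.3 and 25.9 FPKM, a ratio of 1.41, so the opposite direction holds for the summed value only. The bounds of this EZR transcript overlapped, at 0 to 50.5 untreated and 0 to 55.3 after DAC. PLAU, urokinase, had a ratio of 2.37 in HMLER (41.1 to 97.4 FPKM) and 0.612 in MDA-MB-231. The same PLAU transcript was at 82.8 FPKM (bounds 44.2 to 121) untreated and 50.6 (bounds 27.1 to 74.1) after DAC in MDA-MB-231, with overlapping bounds. No S100 gene or annexin listed in HMLER was below its untreated value in MDA-MB-231. S100A8 could not be, and S100P and S100A14 had only 1 and 4 reads untreated there. The share of all genes listed in HMLER that were below was not computed, so no agreement between the lines is read from this. In MDA-MB-231, S100P, S100A14 and ANXA3 had ratios of 13.1, 3.27 and 1.03, and S100A8 was at 0 in both libraries and had no ratio. HMLER values were given only for transcripts that rose, and the remaining S100 genes and annexins were not compared.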

How the results depend on the processing

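No paired analysis was possible because a single MDA-MB-231 library was made per condition, and HMLER values were merged over libraries; leaving out a replicate was not possible for the same reason. Higher S100 genes in MDA-MB-231 (5) came to 9 when no minimum level was set, 3 at 5 FPKM in at least 1 library or with a pseudocount of 1 FPKM, and 2 at 1 FPKM in both libraries. Higher annexins (1) were 3 without a filter and 0 under each of those other settings. Where bounds must not overlap, 0 S100 genes and 0 annexins were called in either direction. At 1.5-fold, lower S100 genes (0) were 2 and lower annexins (1) were 4. The median log2 change of the S100 genes (0.69) depended most on the filter, at -0.27 with 1 FPKM in both libraries, 0.11 at 5 FPKM, 0.43 without a filter and 1.01 with a pseudocount of 0.1 FPKM. Members higher in both lines (1, S100P) were 2 without a filter, with S100A14 added, and 0 at 5 FPKM. The cause was not tested beyond the genes each filter removes. The log2 change of S100P was 0.90 with 1 FPKM added and 2.64 with 0.1 FPKM. Division by the median ratio, the largest transcript and status OK left every count of members called higher or lower as it was, and division by the median ratio took lower intracellular partners from 3 to 2, with AHNAK lost. The log2 change of 0 members at 1 FPKM changed sign under the alternatives run on it. With 1 library per condition, depth sets the precision of S100P, S100A14, S100A5 and ANXA10, which had 1 to 4 reads untreated.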
